A study of Mus musculus with 12 samples.

Results

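Transcripts of 3 flavin monooxygenases and 1 aldehyde oxidase were lower in the lungs of mice after 3 days of hypoxia, most of all Fmo1 and Aox3. The genes examined were 4 flavin monooxygenases (Fmo1, Fmo2, Fmo4 and Fmo5) and 3 aldehyde oxidases (Aox1, Aox3 and Aox4), which are 7 of the 22180 genes that the array measured under a single symbol. Each gene is represented by its transcript cluster, a group of probes along 1 transcribed region, chosen by the highest mean level over all 12 arrays, and each of the 7 had 1 such cluster. The names themselves were chosen with earlier results of the same comparison known, so counts over the 7 are descriptions and carry no test of their own.

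RNA came from the left lung lobe of C57BL/6J mice, with 6 mice held in normobaric hypoxia (10% oxygen) and 6 mice in normoxia (21% oxygen). Exposure lasted 3 days, and every mouse was measured on its own array. The hypoxic mice lived in a chamber and the normoxic mice in the animal unit, so oxygen and housing cannot be told apart. The methods describe the mice as male and matched for age and weight, with no age in the labels. The comparison asks which transcripts differ early in hypoxia, a model of pulmonary hypertension. Levels are on a log2 scale after background correction and normalization by the authors (RMA), and a difference of 1 is a change of 2-fold. The lung markers Sftpc, a surfactant gene of alveolar type 2 cells, Scgb1a1, a club cell secretory gene, and Ager, of alveolar type 1 cells, had mean levels of 13.35, 13.16 and 11.87 in hypoxia and 13.39, 13.16 and 11.92 in normoxia. In the fuller marker lists of these cell types, given below, 1 marker of each fell and none rose. These were Etv5, Cyp2f2 and Rtkn2 (log2 fold changes -0.23, -0.32 and -0.29).

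Flavin monooxygenases sit in the membrane of the endoplasmic reticulum. They hold a flavin (FAD), take electrons from NADPH and add 1 atom of molecular oxygen to the nitrogen or sulfur of small molecules, among them many drugs and pollutants. Aldehyde oxidases are soluble enzymes that carry a molybdenum cofactor, iron-sulfur centers and FAD. They oxidize aldehydes and nitrogen-containing rings and pass the electrons to oxygen, which yields hydrogen peroxide and superoxide. In the lung both families act on inhaled and circulating foreign compounds, beside the cytochromes P450.

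Of the 7 genes, 4 fell in hypoxia (Fmo1, Fmo2, Fmo5 and Aox3), none rose and 3 did not pass the test (limma, Benjamini-Hochberg adjustment over 41155 clusters, threshold 0.05). Over all clusters, 1.70% fell and 4.47% passed in either direction. These include clusters without a symbol. With 1 cluster for each of the 22180 genes, 474 fell and 864 rose. The 7 log2 fold changes were all below 0 with a median of -0.36, where 54.7% of all clusters lay below 0 with a median of -0.02. The levels of the 6 hypoxic and the 6 normoxic mice did not overlap for the same 4 genes, and 1.53% of all clusters were lower in hypoxia without overlap. These are levels in whole lobes, in which fewer cells of a type and less RNA per cell cannot be told apart.

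**Figure D1:**
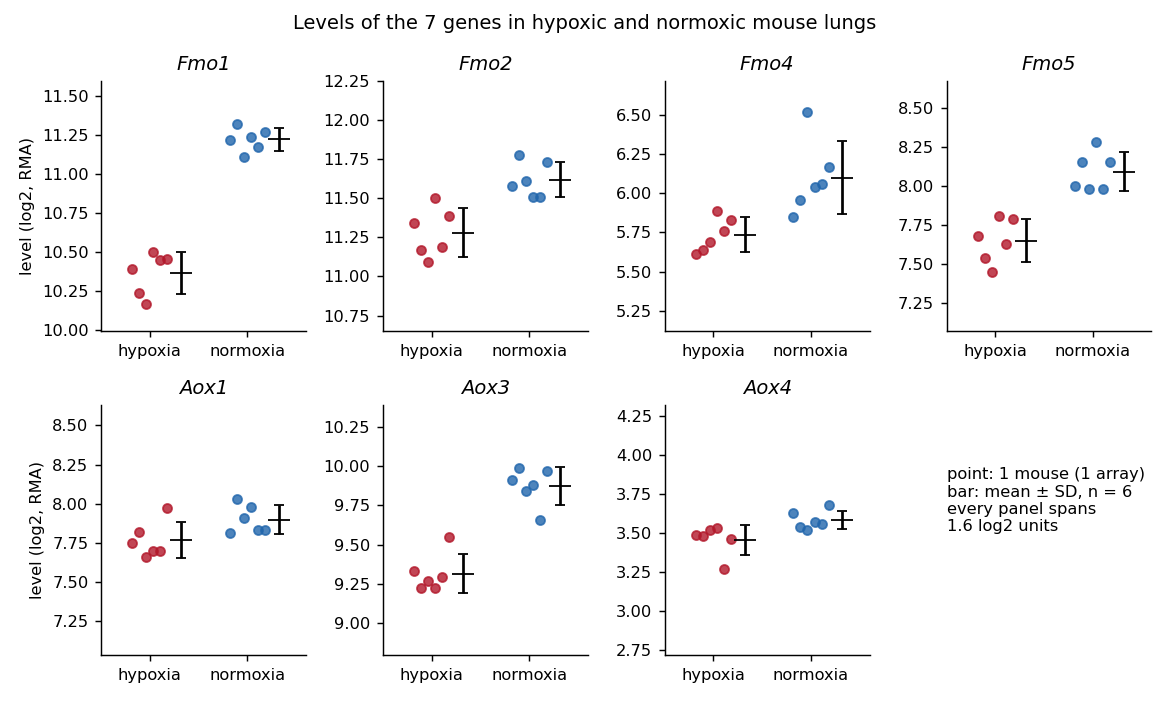
Level of each gene on each array (log2 scale, RMA), with hypoxia in red, normoxia in blue, 1 point for each mouse and the mean ± SD (n=6) beside the points; every panel spans the same 1.6 log2 units. Fmo1 shows a gap of 0.61 between the groups, Fmo2 a gap of 0.01, and the groups of Fmo4, Aox1 and Aox4 overlap.

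Fmo1 encodes a flavin monooxygenase of broad substrate range that also forms taurine from hypotaurine. Its level lay between 10.17 and 10.50 in hypoxia (median 10.42) and between 11.11 and 11.32 in normoxia (median 11.23). The highest hypoxic mouse was 0.61 below the lowest normoxic mouse, the widest gap among the 7 genes. The mean was 10.37 ± 0.13 in hypoxia and 11.22 ± 0.07 in normoxia (SD, n=6 each), so that Fmo1 fell by 0.85 on the log2 scale (SE 0.07, 95% interval -1.0 to -0.71, adjusted p=1.27e-05 from limma), a change of -44.6%. By its p-value the cluster ranked 43 among 41155, and 0.129% of all clusters had a change as low or lower.

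Fmo2 encodes the form of the enzyme that prevails in the lung of most mammals. Its level lay between 11.09 and 11.50 in hypoxia (median 11.27) and between 11.51 and 11.78 in normoxia (median 11.60). The groups were apart by only 0.01, the step to which the deposited values are rounded. Fmo2 fell by 0.34 on the log2 scale (SE 0.08, 95% interval -0.51 to -0.17, adjusted p=0.0286 from limma), a change of -21.0%. Leaving out 1 array at a time ended the call in 7 of 12 cases (log2 fold change -0.38 to -0.30, adjusted p=0.0159 to 0.0676 from limma), namely without hypoxia replicates 2, 3 or 5 or normoxia replicates 1, 2, 3 or 6, and with each array centred on its median (-0.32, adjusted p=0.0522 from limma).

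Fmo5 encodes a member that oxygenates few amines or sulfides and instead inserts oxygen beside the carbonyl of ketones. Its level lay between 7.45 and 7.81 in hypoxia (median 7.66) and between 7.98 and 8.28 in normoxia (median 8.08), with a gap of 0.17 between the groups. Fmo5 fell by 0.44 on the log2 scale (SE 0.08, 95% interval -0.61 to -0.27, adjusted p=0.00565 from limma), a change of -26.3%.

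Fmo4 is the least studied of these enzymes. Its level lay between 5.61 and 5.89 in hypoxia (median 5.73) and between 5.85 and 6.52 in normoxia (median 6.05), and 1 normoxic mouse, replicate 1, lay within the range of the hypoxic mice. The log2 fold change of -0.36 was close to that of Fmo2, but the spread differed between the groups (SD 0.11 in hypoxia and 0.23 in normoxia, n=6 each), and the change did not pass the test (SE 0.10, 95% interval -0.58 to -0.15, adjusted p=0.0635 from limma). It passed when only clusters with 1 gene symbol entered the adjustment (adjusted p=0.0291 from limma) and without normoxia replicate 1 (-0.41, adjusted p=0.0424 from limma).

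Aox3 encodes the main aldehyde oxidase of mouse lung and liver, whose human counterpart is a pseudogene. Its level lay between 9.22 and 9.55 in hypoxia (median 9.28) and between 9.66 and 9.99 in normoxia (median 9.90). The groups were 0.11 apart, and the hypoxic mouse nearest to normoxia, replicate 6, was 0.22 above the next. The mean was 9.31 ± 0.12 in hypoxia and 9.88 ± 0.12 in normoxia (SD, n=6 each), and Aox3 fell by 0.56 on the log2 scale (SE 0.07, 95% interval -0.72 to -0.40, adjusted p=6.29e-04 from limma), a change of -32.2%.

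Aox1, which encodes the only aldehyde oxidase that is active in humans, lay between 7.66 and 7.97 in hypoxia (median 7.73) and between 7.81 and 8.03 in normoxia (median 7.87). The groups overlapped, with 4 hypoxic mice below all normoxic mice, and the log2 fold change of -0.13 did not pass the test (95% interval -0.27 to 0.01, adjusted p=0.349 from limma). Aox4, a form known from the Harderian gland, lay between 3.27 and 3.53 in hypoxia (median 3.49) and between 3.52 and 3.68 in normoxia (median 3.57), at the dim end of the array, where the median cluster had a mean of 5.91. Its log2 fold change of -0.12 did not pass either (95% interval -0.25 to -0.0024, adjusted p=0.293 from limma). Log2 fold changes down to -0.27 for Aox1 and -0.25 for Aox4 lie within these intervals. For a gene as dim as Aox4 the interval may not bound a fall of the transcript.

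On chromosome 1 the members stand in 2 runs of related genes, with Fmo4, Fmo1, Fmo2 and Fmo6 in one and Aox1, Aox3, Aox4 and Aox2 in the other, while Fmo5 lies on chromosome 3 (order from RefSeq, GRCm38.p6). To ask whether neighbours changed by the same amount, the difference between the levels of 2 adjacent genes was taken on each array and compared between the groups. The size of such a difference has no meaning across probes, but its change between the groups does. This was done for the 4 pairs of members that are adjacent. An exact permutation test ran over the 924 ways to split the 12 arrays, adjusted over the 4 pairs. The pairs were tested after seeing the data, in which Fmo1 and Aox3 had the largest falls. Their p-values therefore describe these pairs and do not test a prediction.

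Fmo1 fell more than Fmo2, its neighbour. The difference Fmo1 minus Fmo2 lay between -1.0 and -0.74 in hypoxia and between -0.50 and -0.27 in normoxia, without overlap, and changed by -0.51 (95% interval -0.63 to -0.40, two-sided exact permutation p=0.00217, adjusted p=0.00289, lower in all 6 hypoxic mice). The change of Fmo1 was also larger than that of Fmo4 on its other side (change of -0.49, 95% interval -0.77 to -0.21, exact permutation p=0.013, adjusted p=0.013), where normoxia replicate 3 lay within the hypoxic range. Among the aldehyde oxidases, the difference Aox3 minus Aox1 lay between 1.40 and 1.61 in hypoxia and between 1.83 and 2.14 in normoxia, and changed by -0.43 (95% interval -0.56 to -0.30, exact permutation p=0.00217, adjusted p=0.00289). The remaining difference, Aox3 minus Aox4, changed by -0.44 (95% interval -0.62 to -0.26, exact permutation p=0.00217, adjusted p=0.00289). No conclusion is drawn from this pair. Aox4 lay at the dim end of the array in both groups, and an equal fall of it could not have been seen there. A p of 0.00217 is the smallest this design can give. The measured level of Fmo1 thus changed more than those of both members beside it, and that of Aox3 more than that of Aox1. Fmo4, however, had mean levels of 5.74 in hypoxia and 6.1 in normoxia, near that of the median cluster (5.91). Whether its dim signal understates its change was not tested. The genes of a run are similar in sequence, and hybridization of 1 transcript to the probes of another was not tested.

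**Figure D2:**
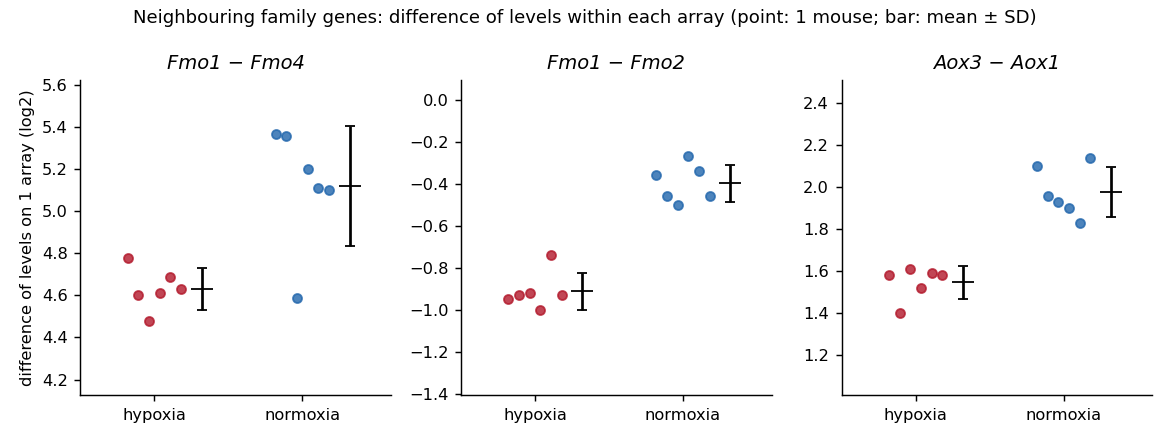
Difference between the levels of 2 adjacent family genes on each array (log2 units), hypoxia in red and normoxia in blue, with 1 point for each mouse and the mean ± SD (n=6); the panels span equal ranges. The groups do not overlap for Fmo1 minus Fmo2 and Aox3 minus Aox1, and 1 normoxic mouse lies among the hypoxic mice for Fmo1 minus Fmo4.

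The measured relatives within and near these runs that are not among the 7 genes did not pass the test. Fmo6 had a log2 fold change of -0.07 (adjusted p=0.783 from limma), Aox2 of 0.01 (adjusted p=0.982 from limma) and Fmo9 of -0.05 (adjusted p=0.812 from limma). Their mean levels were 5.25, 4.45 and 4.0 in hypoxia and 5.32, 4.45 and 4.05 in normoxia. All lay below the mean of the median cluster (5.91), where a fall may not be seen. Among the 3 genes on each side of the Fmo run, 4 were measured and 1 passed the test, where 4.47% of all clusters passed in either direction. This was Prrx1, a homeobox gene of mesenchymal cells, which rose by 0.72 (adjusted p=1.96e-04 from limma), against the direction of the Fmo genes. Beside the Aox run, 5 were measured and 2 passed. Sgo2a, which protects the cohesion of centromeres, rose by 0.47 (adjusted p=0.00876 from limma), and Clk1, a kinase of splicing factors, fell by 0.25 on the log2 scale (adjusted p=0.0122 from limma). Of 6 measured genes around Fmo5, Prkab2, a subunit of the AMP-activated kinase, fell by 0.25 (adjusted p=0.0243 from limma), a call that ended in 6 of 12 cases of leaving out 1 array (log2 fold change -0.27 to -0.22), namely without hypoxia replicates 3, 4, 5 or 6 or normoxia replicates 1 or 4.

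**Figure D3:**
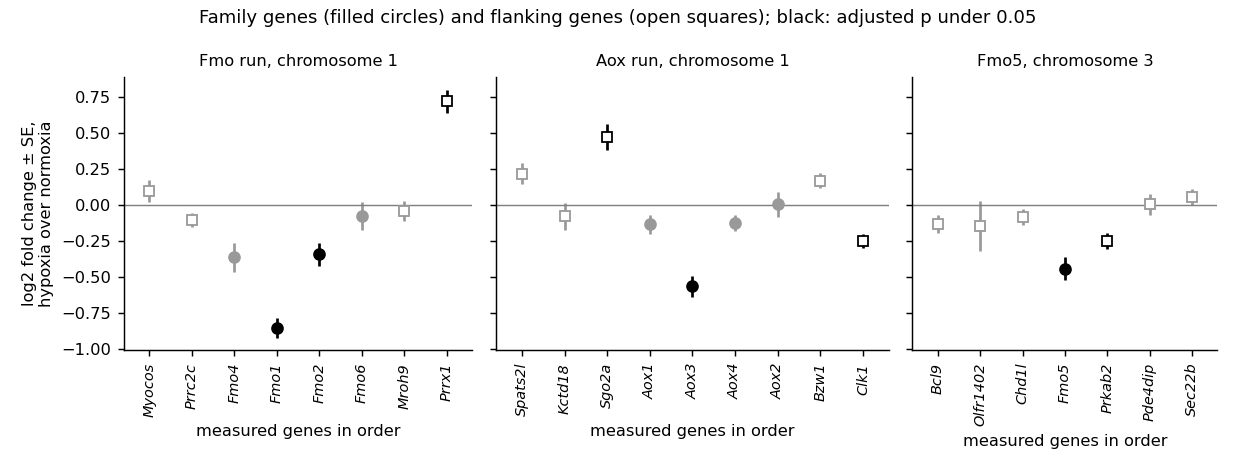
Log2 fold change (hypoxia over normoxia, ± SE) of the measured family genes (filled circles) and of the measured genes among the 3 on each side (open squares), in chromosomal order without distances; black marks an adjusted p under 0.05. Fmo1 at -0.85 and Aox3 at -0.56 are the lowest points of the 2 runs on chromosome 1, and the flanking genes Prrx1 (0.72) and Sgo2a (0.47) point the other way.

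Promoter sequences, 250 bases before to 50 after the start of the gene, were matched in RefSeq (GRCm38.p6) for 6 of the 7 genes, all but Fmo1, in 7 windows. They were searched on both strands for ACGTG and GCGTG, the core letters of the element that hypoxia-inducible factors bind (GCGTG is also the core of the element of the aryl hydrocarbon receptor), for TGACNNNGC, the core of the antioxidant response element, and for TATAAA and CCAAT. Of all 32851 windows in the table, 19.6% hold ACGTG, 32.4% GCGTG, 12.4% TGACNNNGC, 13.6% TATAAA and 37.4% CCAAT. The windows of the 3 genes that fell and of Aox1, the neighbour of Aox3 that did not pass, are shown 5′ to 3′ on the strand of the gene, with matches in capitals (on the opposite strand as the reverse complement, so that CCAAT reads ATTGG and TATAAA reads TTTATA).

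Fmo2 promoter, chr1:162898709-162899008, minus strand: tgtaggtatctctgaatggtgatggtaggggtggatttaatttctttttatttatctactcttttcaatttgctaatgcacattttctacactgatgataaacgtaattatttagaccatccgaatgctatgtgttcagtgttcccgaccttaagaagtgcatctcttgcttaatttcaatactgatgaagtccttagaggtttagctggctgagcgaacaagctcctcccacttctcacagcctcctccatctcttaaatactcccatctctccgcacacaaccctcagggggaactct
Fmo5 promoter, chr3:97628769-97629068, plus strand: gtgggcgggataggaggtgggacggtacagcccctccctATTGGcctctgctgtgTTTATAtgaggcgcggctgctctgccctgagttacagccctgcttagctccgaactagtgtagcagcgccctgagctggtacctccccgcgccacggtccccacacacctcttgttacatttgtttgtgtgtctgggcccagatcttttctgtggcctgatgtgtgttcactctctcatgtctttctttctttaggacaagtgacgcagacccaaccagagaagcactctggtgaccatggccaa
Aox3 promoter, chr1:58112886-58113185, plus strand: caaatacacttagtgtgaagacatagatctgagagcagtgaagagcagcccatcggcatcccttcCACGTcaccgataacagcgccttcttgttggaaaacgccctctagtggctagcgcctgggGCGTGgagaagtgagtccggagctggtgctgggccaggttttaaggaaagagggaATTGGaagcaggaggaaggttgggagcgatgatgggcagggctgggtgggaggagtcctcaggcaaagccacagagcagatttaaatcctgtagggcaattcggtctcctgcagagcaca
Aox1 promoter, chr1:58029719-58030018, plus strand: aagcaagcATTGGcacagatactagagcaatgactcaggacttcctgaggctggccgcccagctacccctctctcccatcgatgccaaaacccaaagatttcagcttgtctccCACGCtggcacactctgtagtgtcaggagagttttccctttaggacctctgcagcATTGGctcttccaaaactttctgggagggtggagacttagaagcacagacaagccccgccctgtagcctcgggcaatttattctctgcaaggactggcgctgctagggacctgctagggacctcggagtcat

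In these letters Aox3 holds 1 ACGTG (read on the opposite strand as CACGT, first base at -185 from the start) and 1 GCGTG (at -125), and Aox1 holds 1 GCGTG (opposite strand, at -137). Fmo5 holds none of either, and the Fmo2 window shown holds no match at all, while a second, overlapping Fmo2 window holds 1 ACGTG. Of the members that did not pass and are not shown, Aox4 holds ACGTG on both strands (first bases at -60 and -59). Fmo4 holds neither ACGTG nor GCGTG. None of the 7 windows holds TGACNNNGC. The GC content was 41.3% for the Fmo2 window shown, 56.0% for Fmo5, 55.0% for Aox3 and 54.3% for Aox1, where the median of all windows was 52.7%. A match of letters is no evidence of binding, and the absence of a match concerns these windows alone.

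The other genes of the pathway were taken from lists of 57 genes, of which 52 were measured under 1 symbol. Of the 52, 1 rose and 5 fell, where 1.70% of all clusters fell and 4.47% passed in either direction. None of 7 further flavin monooxygenase and molybdenum enzyme genes passed the test (median log2 fold change -0.07). Xdh, the xanthine oxidoreductase that is closest to the aldehyde oxidases in build, had a log2 fold change of -0.15 (adjusted p=0.398 from limma) and Mtarc2, a mitochondrial molybdenum enzyme, of -0.10 (adjusted p=0.393 from limma). None of 5 genes that make the molybdenum cofactor passed either (median -0.06), with Mocs1, the first enzyme of that route, at -0.12 and Mocos, the sulfurase that activates the cofactor in aldehyde oxidases, at -0.13. Of 3 measured genes for the supply of FAD none passed (median 0.03), with log2 fold changes of -0.08 for the riboflavin transporter Slc52a3 and 0.04 for the riboflavin kinase Rfk. In these 3 lists the unadjusted p of limma was under 0.05 for none of the genes, and the analysis of variance called none. No 95% interval in them reached below -0.34, and the intervals of Fmo1 and Aox3 lay wholly below that value. Members and lists were chosen with earlier results of these data known, so this separation is a description and no test. Fmo6, Fmo9, Aox2, Mtarc1 and Mocs3 had mean levels below that of the median cluster (5.91). For such dim genes the interval may not bound a fall of the transcript.

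Among 10 measured genes of other oxidases and hydrolases of foreign compounds, 4 fell and none rose (median log2 fold change -0.18), where 1.70% of all clusters fell. Maob, a monoamine oxidase that like the aldehyde oxidases releases hydrogen peroxide, had a level of 7.83 ± 0.05 in hypoxia and 8.23 ± 0.08 in normoxia (SD, n=6 each; log2 fold change -0.40, adjusted p=6.31e-04 from limma). Ephx1, the microsomal epoxide hydrolase, fell by 0.35, Aldh1a1, which oxidizes retinal and other aldehydes, by 0.27 and Aldh2, the mitochondrial aldehyde dehydrogenase, by 0.21 on the same scale. The probes of Aldh1a1 may share sequence with the close copy Aldh1a7 (log2 fold change -0.07), which was not tested. In all 4, which were picked by the test, the hypoxic mice lay below every normoxic mouse, as in 1.53% of all clusters.

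Genes of 2 regulons tied to these families did not pass the test. Of 9 measured targets of NRF2, the factor that induces Aox1 in the mouse, none passed the test (median log2 fold change 0.04), and the smallest p-values were those of Hmox1, heme oxygenase 1 (0.24, adjusted p=0.19 from limma), and Osgin1 (-0.14, adjusted p=0.268 from limma). Of 5 targets of the aryl hydrocarbon receptor none passed (median -0.06). The unadjusted p of limma was under 0.05 for 3 NRF2 targets and 2 targets of the receptor, and the analysis of variance called none of either list. Cyp1a1 had a log2 fold change of -0.40 (adjusted p=0.0665 from limma) and Cyp1b1 of 0.32 (adjusted p=0.236 from limma), with overlapping groups in both.

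Of 4 genes of taurine synthesis and uptake, Slc6a6, the taurine transporter, rose by 0.54 (10.85 ± 0.13 in hypoxia and 10.31 ± 0.16 in normoxia, SD, n=6 each; adjusted p=0.0023 from limma), and the synthesis genes Cdo1, Csad and Ado did not pass. Slc6a6 was thus higher in the lungs in which Fmo1 was lower. Of 9 measured genes of retinoid metabolism, Dhrs3, which turns retinal back to retinol, fell by 0.32 (adjusted p=0.0335 from limma) and none rose. Aldh1a2 and Aldh1a3, which make retinoic acid, had log2 fold changes of 0.46 and 0.22 (adjusted p=0.0717 and 0.138 from limma), and with Dhrs3 they were the 3 genes of the list with an unadjusted p under 0.05. The call of Dhrs3 ended in 8 of 12 cases of leaving out 1 array (log2 fold change -0.36 to -0.26), namely without hypoxia replicates 1, 3, 4, 5 or 6 or normoxia replicates 1, 2 or 5, and with each array centred on its median (-0.30, adjusted p=0.0565 from limma).

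**Figure D4:**
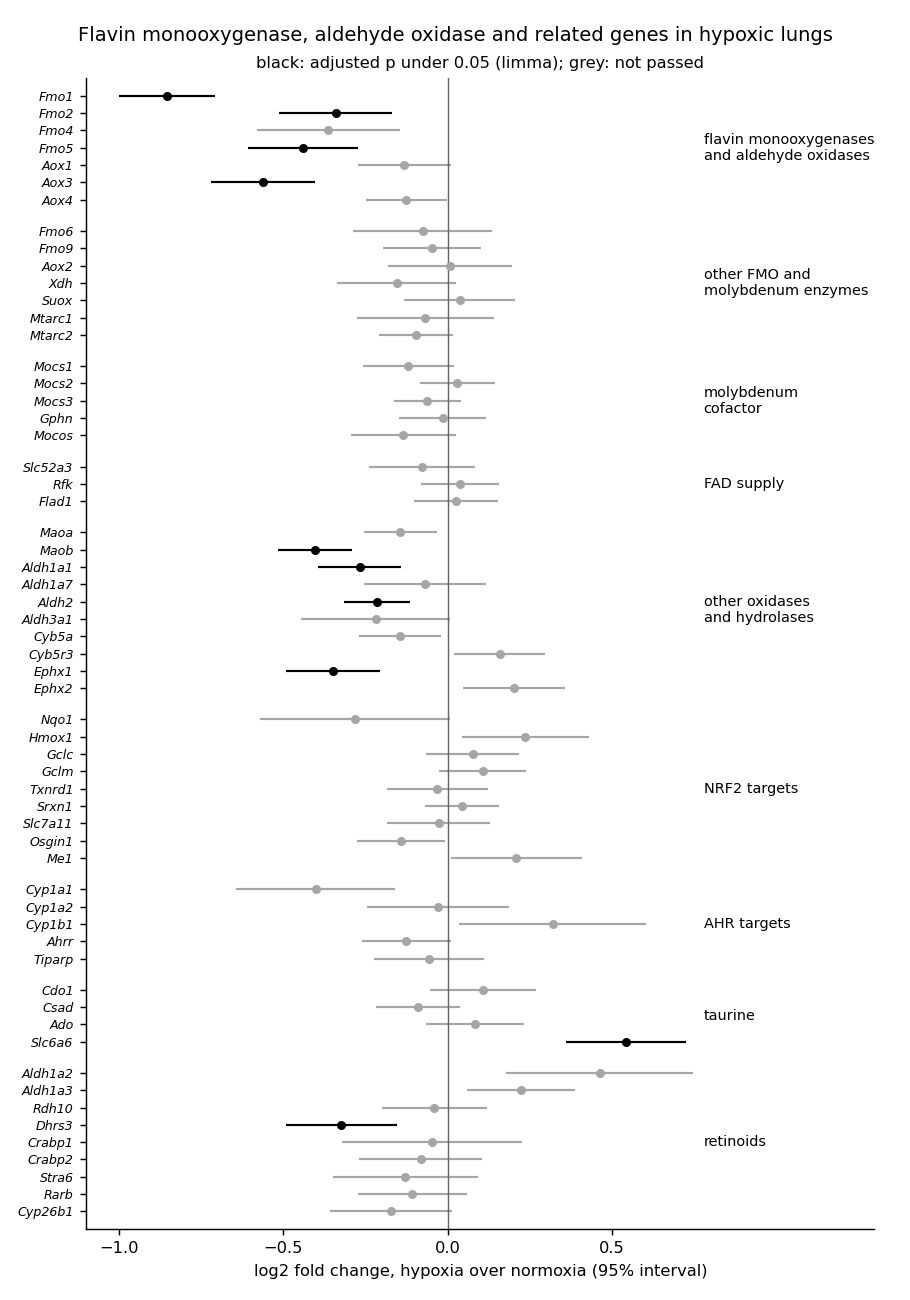
Log2 fold change of each gene, hypoxia over normoxia, with the 95% interval from limma; black marks an adjusted p under 0.05 over all 41155 clusters, and the labels on the right name the lists. Of the 7 genes at the top, 4 are black and all lie left of 0, and of the 52 genes below, 5 are black on the left and Slc6a6 is black on the right.

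Markers of several cell types differed between the same lungs, where 4.47% of all clusters passed in either direction. All 5 markers of smooth muscle rose, and their summed level lay between 12.17 and 12.61 in hypoxia and between 11.21 and 11.60 in normoxia (log2 of the sum of linear values). Of 9 fibroblast markers 4 rose and 1 fell (13.61 to 13.82 in hypoxia, 13.48 to 13.63 in normoxia), and of 7 markers of capillary endothelium 2 fell and none rose (13.16 to 13.26 in hypoxia, 13.25 to 13.41 in normoxia). For alveolar type 2 cells 1 of 6 markers fell and none rose, and the sums did not overlap (14.77 to 14.87 in hypoxia, 14.89 to 14.99 in normoxia). For club cells 1 of 6 fell and none rose, and the sums overlapped (14.67 to 14.83 in hypoxia, 14.70 to 14.91 in normoxia). In further lists 1 of 5 alveolar type 1 markers fell (Rtkn2, log2 fold change -0.29, adjusted p=0.00809 from limma), as did 1 of 5 ciliated cell markers (Tppp3, -0.36, adjusted p=0.0261 from limma) and 1 of 3 alveolar macrophage markers (Siglecf, -0.47, adjusted p=0.015 from limma), and the sums of these lists overlapped. The 1 measured erythroid marker, Slc4a1, rose by 0.83 (adjusted p=0.0335 from limma), with overlapping levels. The summed level of the 7 flavin monooxygenase and aldehyde oxidase genes lay between 12.10 and 12.41 in hypoxia and between 12.69 and 12.91 in normoxia. The part of these cell types in the lower levels of Fmo1, Fmo2, Fmo5 and Aox3 was not tested. Liver, a site of high expression of several of these enzymes, was represented by 8 hepatocyte markers, none of which passed the test (2 at an unadjusted p of limma under 0.05, none by the analysis of variance), with a sum between 8.33 and 8.59 in hypoxia and between 8.49 and 8.60 in normoxia. Of 5 cardiomyocyte, 5 neutrophil and 4 T and B cell markers none passed the test (0, 0 and 2 at an unadjusted p of limma under 0.05, none by the analysis of variance). Alb, the albumin gene, had a mean level of 5.54 in hypoxia and 5.59 in normoxia.

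Levels of the 7 genes were also compared from mouse to mouse within each group. Over the 21 pairs of genes in each of the 2 groups, 42 relations were computed, 2 had an unadjusted exact permutation p under 0.05 and none passed after adjustment over the 42. In hypoxia r lay between -0.315 and 0.957 (median 0.307), and in normoxia between -0.651 and 0.758 (median 0.302). The highest r, that of Fmo2 and Fmo5 among the 6 hypoxic mice, was 0.957 (exact permutation p=0.00278, adjusted p=0.117), with rho=1.0 (exact permutation p=0.00278, adjusted p=0.117) and r=0.921 without the 2 mice farthest from the median of Fmo2. The same pair had r=0.175 among the 6 normoxic mice (exact permutation p=0.711, adjusted p=0.885), with rho=0.134 (exact permutation p=0.811, adjusted p=0.956) and r=-0.547 without the 2 farthest mice. Hypoxia replicate 3 had the lowest level of its group in 4 of the 7 genes, and hypoxia replicate 4 the highest in 5.

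The genes whose levels varied most like a member were searched among 11666 brighter genes with 1 symbol, by the correlation of the deviations from the group means over the 12 arrays. They are the highest of a long list, so no p is given, and all points share the arrays and their normalization. For Fmo1 they were Fhl1 (r=0.917, rho=0.853), Pom121 (r=0.912, rho=0.895) and Rnf144b (r=0.906, rho=0.879). For Fmo2 the first was Nr3c1, the gene of the glucocorticoid receptor (r=0.925, rho=0.908), followed by Tead2 and Pdgfrl (r=0.896 and 0.882). For Fmo5 they were Slc25a1, Sgpp1 and Chtf8 (r=0.92, 0.913 and 0.9), and for Aox3 they were Fam214a, Plekhg5 and Tmod1 (r=0.887, 0.886 and 0.883). Fmo4 stood closest to Nbdy (r=0.923), Aox1 to Slc7a1, a transporter of arginine and lysine (r=0.953), and Aox4, searched among 11667 genes, to Rad50 (r=0.89). Of the 12 genes for the 4 members that fell, only Rnf144b passed the test between the groups (log2 fold change -0.30, adjusted p=0.0402 from limma).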

How the data were processed

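Left lung RNA of 12 mice was hybridized to whole-transcript arrays (Mouse Gene 2.0 ST), 1 array to a mouse. The authors processed the scans with RMA-sketch in Affymetrix Expression Console, so that the deposited values are background-corrected, normalized levels on a log2 scale, rounded to 2 decimals; the sources used here do not give versions of these tools. Of 41345 rows, 190 control rows were left out. Symbols came from the platform annotation through gene IDs (RefSeq table, GRCm38.p6, for names, gene order and promoters). Of 41155 clusters, 23521 carry 1 symbol, 1820 several and 15814 none here.

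Groups were compared by lmFit and eBayes of limma, version 3.58.1, under R 4.3.3 (no trend or weights, two-sided, Benjamini-Hochberg over all clusters, threshold 0.05). The methods name an anova without its terms, and an analysis of variance between the groups was run as an alternative. No dim cluster was left out. The script was tested on simulated data. Array medians lay between 5.89 and 5.92 in hypoxia and between 5.89 and 5.95 in normoxia, array pairs correlated at 0.983 to 0.989, and no 2 arrays were identical. The number of arrays limits the precision. The p-values of limma weigh a difference against the spread between arrays of 1 mouse each, which limma draws toward a value common to all clusters.

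The members and lists were chosen with earlier results of these data known. Named are all members, listed genes past the threshold (or the 2 smallest p-values of a list), flanking genes and the 3 most alike genes of a member (searched without Gm and Rik models, above the median level). Adjacent pairs were tested after seeing the data. Further alternatives were an intensity trend, array weights, 2 further normalizations, 2 filters, the replicate number as a block, means over clusters, a threshold of 0.01 and each array left out in turn. Other steps ran in Python 3.11.15 with scipy 1.17.1, pandas 2.3.3, matplotlib 3.10.9 and numpy 2.4.6.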

Additional observations from a re-analysis of the deposited data

Results flagged for a closer look

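Dixon's test for 1 value far from the rest was run within each group of 6 mice, over the 7 members and the 6 listed genes past the threshold, or 26 groups in all. Chance flags about 1 in 20 groups, and 3 of 26 were found. Aox3 was highest in hypoxia replicate 6 with 9.55, where the other 5 hypoxic mice lay between 9.22 and 9.33. Aox4 was lowest in hypoxia replicate 5 with 3.27, where the others lay between 3.46 and 3.53. Slc6a6 was lowest in hypoxia replicate 3 with 10.61, where the others lay between 10.82 and 10.94. Without these arrays the call of Aox3 held (log2 fold change -0.61), Slc6a6 held (0.59), and Aox4 did not pass (-0.09).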

How the results depend on the processing

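Every log2 fold change of a member stayed below 0 under each alternative, and the calls of Fmo1 (-0.89 to -0.81), Fmo5 (-0.47 to -0.40) and Aox3 (-0.61 to -0.54) held under all of them. The number of members past the threshold was 4, and 3 to 4 with single arrays left out, and their median was -0.36 (-0.41 to -0.34 with single arrays left out). Fmo2 lost its call in the runs given with it, and Fmo4 gained it where fewer clusters were tested, that is with named clusters, brighter clusters or 1 mean for each gene (adjusted p=0.0291, 0.0299 and 0.0286 from limma), and without normoxia replicate 1. Aox4 had no value in the test of brighter clusters. At a threshold of 0.01, 3 members passed, and 3 of the listed genes in place of 6. Arrays of the same replicate number showed little likeness (correlation of deviations from the group means -0.0103 to 0.0723). Of the 12 arrays, 2 were closest to their own number. Whether the numbers pair the mice cannot be told from these values, and the labels do not say. With the replicate number as a block, 3 members passed, Fmo2 did not (adjusted p=0.0989 from limma), and Aldh1a1, Aldh2, Dhrs3, Sgo2a, Clk1 and Prkab2 lost their calls too. The changes of the 4 adjacent pairs kept their direction and an unadjusted exact permutation p under the threshold without each single array and after quantile normalization. These alternatives were chosen after seeing the data.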
